A study of Mus musculus with 8 samples.

Results

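The accessible chromatin of 10 genes of the Hippo pathway and its nuclear effectors, Yap1, Wwtr1, Tead1, Tead2, Tead3, Tead4, Lats1, Lats2, Amotl2 and Vgll4, was examined in mouse mammary gland epithelial cells. The locus of a gene was its annotated span in GENCODE vM21 (mm10) with 20 kb added on each side. FAIRE-seq, which recovers the DNA that is not crosslinked to protein and so marks open chromatin, had been carried out in 2 cell lines. EpH4 is an immortalized mouse mammary gland epithelial line, and EpRas is its derivative transformed with an oncogenic H-Ras. Each line was cultured for 8 days without treatment or with 1 ng/ml TGF-β3 (called TGF-β here), which gave 4 groups with 2 biological replicates each. EpH4 cells were grown in 10% serum and EpRas cells in 4% serum, so the oncogene and the serum cannot be told apart in any comparison of the lines. The data were 8 lists of FAIRE peaks, 1 per library, holding 129466 peaks in all. Overlapping peaks were merged into 37230 regions, and a region was called in a library when a peak of that library overlapped it by at least 1 bp. The 10 loci held 65 of these regions, which 234 peaks made up.

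In the Hippo pathway, the kinases Lats1 and Lats2 phosphorylate the coactivators YAP (Yap1) and TAZ (Wwtr1) and so keep them out of the nucleus. Unphosphorylated YAP and TAZ bind the TEAD proteins (Tead1 to Tead4), which supply the contact with DNA. Vgll4 competes with YAP and TAZ for the TEADs, and Amotl2, a motin, binds YAP at cell junctions and is itself a target gene of YAP and TEAD. In epithelial cells the pathway responds to cell density, polarity and adhesion, and TEAD and AP-1 proteins are known to share many enhancers.

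The accessible region that separated the lines at Wwtr1, the one that separated the treatments at Vgll4 and the one that separated the lines at Lats2 are shown first, because the comparisons below turn on them. Each is the mm10 plus strand over 300 bases around the middle of the merged region, in lower case, with matches to the TEAD sequence GGAATGT and the AP-1 sequence TGANTCA (either strand) in capitals. The last 2 windows hold the TEAD sequence at the promoter of Amotl2 and in the intron of Vgll4 that was open in all 8 libraries. These 2 and the Lats2 window, which holds neither motif, were added after the values were seen.
Wwtr1 intron, chr3:57504837-57505136, called in EpRas libraries only: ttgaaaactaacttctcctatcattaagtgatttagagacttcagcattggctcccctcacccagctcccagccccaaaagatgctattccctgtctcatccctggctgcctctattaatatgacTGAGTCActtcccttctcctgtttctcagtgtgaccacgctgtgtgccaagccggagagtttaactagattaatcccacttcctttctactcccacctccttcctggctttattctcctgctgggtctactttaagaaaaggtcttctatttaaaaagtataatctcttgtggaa
Vgll4 intron, chr6:114866138-114866437, called in TGF-β libraries only: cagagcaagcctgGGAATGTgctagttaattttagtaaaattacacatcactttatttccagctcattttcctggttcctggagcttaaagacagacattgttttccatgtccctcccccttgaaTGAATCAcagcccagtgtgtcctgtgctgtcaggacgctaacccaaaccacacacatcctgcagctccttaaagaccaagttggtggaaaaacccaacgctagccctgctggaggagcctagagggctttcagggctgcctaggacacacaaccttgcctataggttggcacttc
Lats2 intron, chr14:57705119-57705418, called in EpH4 libraries only: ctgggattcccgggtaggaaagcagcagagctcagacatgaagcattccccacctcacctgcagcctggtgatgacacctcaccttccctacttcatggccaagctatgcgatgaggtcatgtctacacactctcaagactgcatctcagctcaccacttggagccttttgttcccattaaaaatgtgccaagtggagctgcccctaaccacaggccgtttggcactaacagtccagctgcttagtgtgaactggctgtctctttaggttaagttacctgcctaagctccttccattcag
Amotl2 promoter, chr9:102717512-102717811: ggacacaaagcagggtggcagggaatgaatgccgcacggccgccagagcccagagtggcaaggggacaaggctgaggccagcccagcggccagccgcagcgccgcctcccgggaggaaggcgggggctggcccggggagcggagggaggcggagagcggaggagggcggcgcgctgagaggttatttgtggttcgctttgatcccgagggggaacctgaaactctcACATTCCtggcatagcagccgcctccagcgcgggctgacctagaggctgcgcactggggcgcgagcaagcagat
Vgll4 intron, chr6:114888963-114889262, called in all 8 libraries: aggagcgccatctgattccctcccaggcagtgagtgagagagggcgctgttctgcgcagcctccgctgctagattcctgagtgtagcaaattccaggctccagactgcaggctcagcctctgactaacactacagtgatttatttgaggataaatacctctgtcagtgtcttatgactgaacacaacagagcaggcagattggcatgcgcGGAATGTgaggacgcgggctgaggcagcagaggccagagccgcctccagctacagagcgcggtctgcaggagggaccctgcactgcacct
The AP-1 match of the Wwtr1 window is TGAGTCA at 57504962 to 57504968. In the first Vgll4 window the TEAD match lies at 114866151 to 114866157, across the 5' edge of the merged region, and the AP-1 match TGAATCA at 114866263 to 114866269. The TEAD match of the Amotl2 window is on the minus strand, at 102717738 to 102717744.

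The lists held between 10821 and 27337 peaks, the longest being that of EpRas TGF-β replicate 1, and gave no read counts, so the depth of the libraries is unknown and a region missing from a list was not shown to be closed. A lost call in such bulk samples can also stand for fewer cells with the site open or for a less open site, which cannot be told apart. Promoter regions of the epithelial markers Krt8, Cdh1, Krt18 and Cldn7 were called in 5, 4, 3 and 1 of the 8 libraries and that of Epcam in 0, whereas those of Ptprc, Cd3e, Pecam1, Myod1 and Alb, markers of other cell types, were called in 0. The listed marker Hbb-b1 was not matched in the annotation.

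FAIRE peaks were found at 9 of the 10 loci. Vgll4 had 17 regions, Wwtr1 14, Tead1 9, Amotl2 6, Tead3 and Tead4 5 each, Lats2 4, Yap1 3 and Lats1 2. No peak was called in any library at the locus of Tead2, as was the case for 28.2% of the 21938 protein-coding loci of the annotation. Vgll4 and Wwtr1 stood at percentiles 99.8 and 99.4 of the 15743 loci with at least 1 region. Both are long genes, and per 100 kb of locus they stood at percentiles 95.7 and 89.3, with Amotl2, the shortest of the 10 genes, at 94.3. The median of the 9 loci was 5 regions against 2 over all loci with a region, and 4.29 against 3.49 regions per 100 kb.

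A region was assigned to the promoter when its midpoint lay within 2 kb of an annotated start of a protein-coding transcript of the gene. By this measure 10 of the 65 regions were promoter regions, 1 lay in an exon, 35 in introns and 19 in the flanks. The exonic region (chr3:57501675-57502058) covered the coding exon 3 of Wwtr1 and was called in 7 libraries. Counting the starts of any gene, 17 of the 65 regions, 26.2%, were promoter regions, against 32.6% of all regions. In 9 regions (13.8%) a peak was called in all 8 libraries, against 11.4% of all regions. With the lists trimmed to the same number of top-scoring peaks 3 of these 9 were still called in all 8 (Fance region of Tead3, Tead4 intron and a Vgll4 intron), and 6.12% of the 49 regions then left at the loci were, against 10.5% of all. In 21 regions (32.3%) a peak was called in 1 library, against 31.6%.

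**Figure D1:**
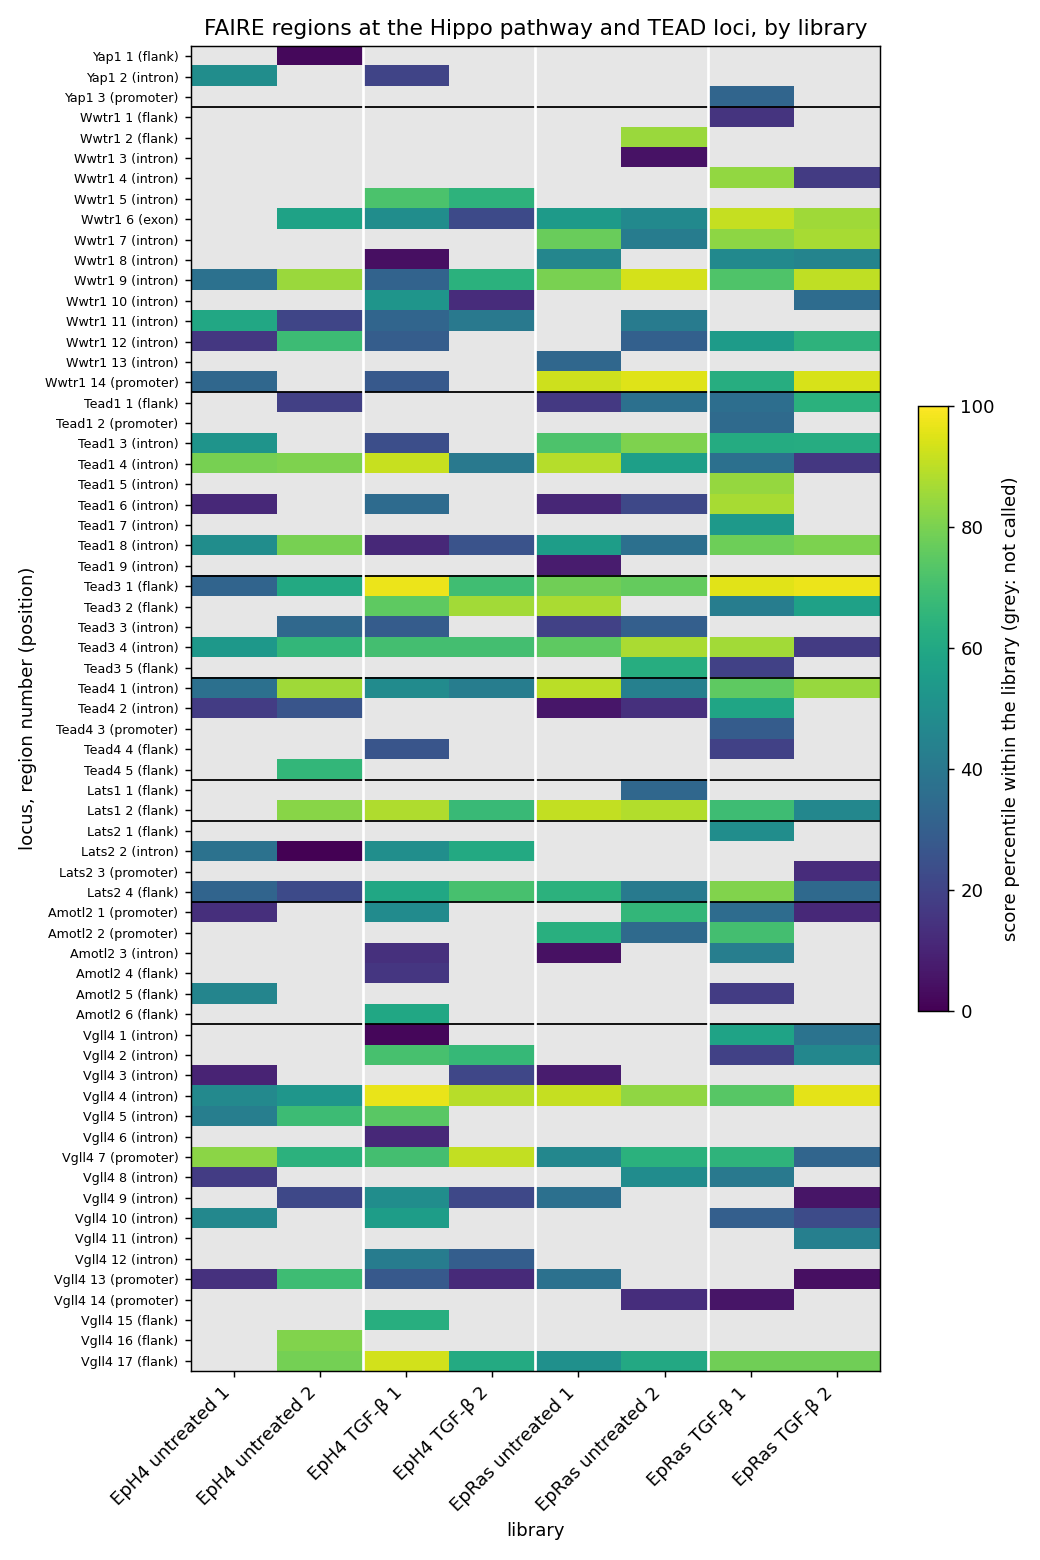
Score percentile of the 65 regions (rows, numbered along the chromosome within each locus, with their position in parentheses) in the 8 libraries (columns). The percentile is the rank of the peak's score within its own list, and grey cells are regions with no peak; the 9 rows without grey are the regions called in all 8 libraries.

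The lists of the 4 EpH4 libraries held 24, 24, 38 and 22 of the 65 regions, in the order untreated replicates 1 and 2 and TGF-β replicates 1 and 2. Those of the EpRas libraries held 28, 29, 40 and 29 in the same order. The counts of the lines overlapped (27.0 ± 7.39 in EpH4 and 31.5 ± 5.69 in EpRas, SD, n = 4), as did those of the untreated and TGF-β libraries (26.25 ± 2.63 and 32.25 ± 8.34, SD, n = 4). Each list held between 28.9 and 73.2% of all 37230 regions, the lists being of unequal length. Per 1000 peaks of the library the loci contributed between 1.46 and 2.12 regions, with means of 1.98 ± 0.125 in EpH4 and 1.73 ± 0.272 in EpRas and of 1.87 ± 0.199 untreated and 1.83 ± 0.301 with TGF-β (SD, n = 4), so that the order of the means turned in both comparisons. Because the peak score has no stated unit, its rank within the list, as a percentile, is used below.

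The promoters of the 2 coactivators differed in the number of libraries that called them. The promoter region of Wwtr1, which encodes TAZ (chr3:57575707-57576119, centred on the annotated start), was called in all 4 EpRas libraries and in 2 of the 4 EpH4 libraries. Its percentiles were 92.4 and 95.2 in the untreated and 62.4 and 94.0 in the TGF-β EpRas libraries, and 33.3 and 28.1 in replicate 1 of the untreated and of the TGF-β EpH4 libraries. Every EpRas value thus stood above both EpH4 values, and replicate 2 of both EpH4 groups had no peak. By its calls the region did not separate the lines, and the share of all regions with such values was not counted. At the promoter of Yap1 (chr9:8003366-8003576) a peak was called only in EpRas TGF-β replicate 1, at percentile 32.8. The remaining regions of the Yap1 locus were an intronic region (chr9:7965711-7965996) in replicate 1 of both EpH4 groups, at percentiles 49.2 and 20.5, and a downstream region called in 1 library. Thus none of the 3 regions at Yap1 was called in more than 2 libraries.

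The Wwtr1 locus held 1 of the 2 regions whose calls separated the lines. An intronic region of Wwtr1 70.8 kb from its start (chr3:57504824-57505149) was called in all 4 EpRas libraries, at percentiles 77.1, 42.0, 82.9 and 86.9, and in none of the EpH4 libraries. It is the first window printed above and carries an AP-1 sequence. It was the only one of the 65 regions called in every EpRas and no EpH4 library, as were 1.98% of all regions. With the lists trimmed to the same number of top-scoring peaks it was still called in 4 EpRas and 0 EpH4 libraries, and among peaks with a score at or above the median of all peaks in 3 and 0. The share of peaks on chromosome 3 was lower in the EpRas than in the EpH4 lists (5.23 to 5.53% against 6.13 to 6.26%), and its part in the calls at this region was not tested.

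Around this region, Wwtr1 held accessible sites with other patterns. The only region of the locus called in all 8 libraries (chr3:57512280-57512644, intronic) had a mean percentile of 54.5 ± 24.6 in EpH4 and 84.0 ± 9.80 in EpRas (SD, n = 4), and the means were 29.5 apart (p = 0.0857 by the exact permutation test). After adjustment over the 4259 regions called in all 8 libraries the p of this test was 0.444. Without EpH4 untreated replicate 2, the highest EpH4 value there, the means were 39.7 apart (exact permutation test, p = 0.0286, unadjusted). Without any other single library they were at most 33.4 apart (exact permutation test, p = 0.114 to 0.171). How often such a removal reaches 0.0286 over all regions was not counted. The window of this region holds 2 AP-1 sequences. An intronic region at chr3:57491715-57491961 was called only in both EpRas TGF-β libraries, at percentiles 84.0 and 17.6, and another at chr3:57500887-57501131 only in both EpH4 TGF-β libraries, at 71.7 and 64.6. Regions called in both libraries of the TGF-β group and in no other library made up 4.21% of all regions for EpRas and 0.86% for EpH4. In the order given above, the libraries had 4, 4, 8 and 5 regions at Wwtr1 in EpH4 and 6, 8, 8 and 8 in EpRas, a difference of 2.25 regions between the means, with overlap (exact permutation test, p = 0.143, adjusted p = 0.784 over all loci).

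**Figure D2:**
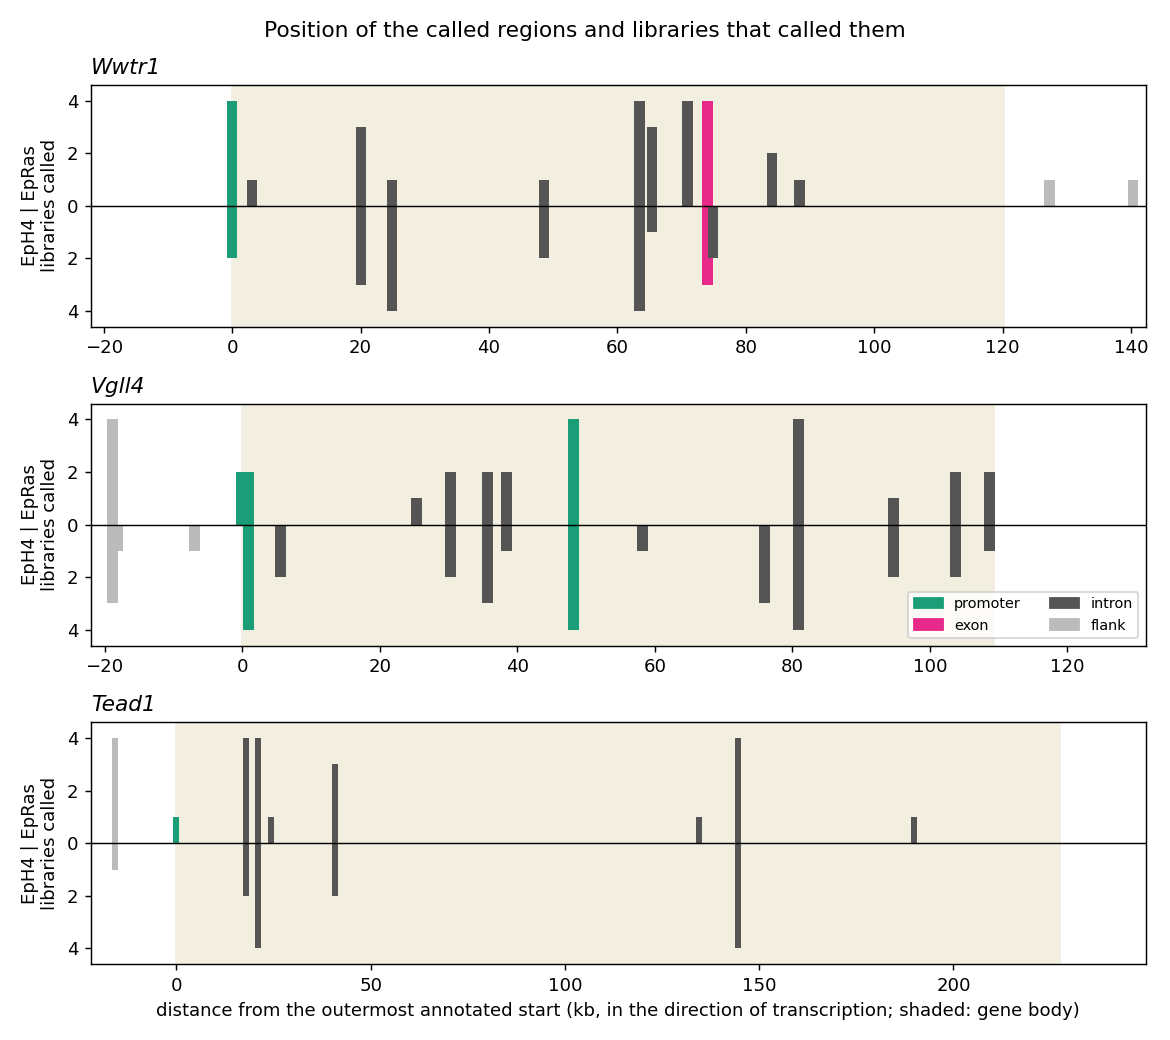
Called regions at Wwtr1, Vgll4 and Tead1 by distance from the outermost annotated start in kb, in the direction of transcription. Bars above 0 give the number of EpRas libraries and bars below 0 the number of EpH4 libraries, of 4 each, in which the region was called; at Wwtr1 an intronic bar 70.8 kb from the start reaches 4 on the EpRas side and 0 on the EpH4 side.

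Among the genes of the TEAD factors, Tead1 had the most accessible regions, and their number was larger in EpRas lists without separating the lines. The EpH4 libraries had 4, 3, 4 and 2 regions and the EpRas libraries 6, 5, 8 and 4, with means of 3.25 ± 0.957 and 5.75 ± 1.71 (SD, n = 4). The value 4 occurred in both lines, and the difference of 2.5 regions did not pass (p = 0.0857 by the exact permutation test, 0.784 after adjustment). Without EpRas TGF-β replicate 2, the EpRas library with the fewest regions, the difference was 3.08 (exact permutation test, p = 0.0286, unadjusted). Without any other single library it was 1.75 to 2.75 (exact permutation test, p = 0.0857 to 0.171). The share of all loci that such a removal brings to 0.0286 was not counted. With equal list sizes the difference was 1.5 (exact permutation test, p = 0.171). Peaks on chromosome 7 had a larger share in EpRas (5.50 to 5.93%) than in EpH4 lists (4.28 to 4.94%), and the part of this in the count at Tead1 was not tested. Over all loci, 4.25% had more regions in every EpRas than in every EpH4 library and 0.565% had fewer, and none of the 9 loci with regions was among them.

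The promoter of Tead1 was called only in EpRas TGF-β replicate 1. Its intron region at chr7:112700111-112700482, 8.6 kb from the nearest start, was called in all 8 libraries with percentiles of 79.7, 80.7, 91.6 and 40.4 in EpH4 and 88.7, 56.4, 37.0 and 16.2 in EpRas. A more distant intronic region of Tead1 (chr7:112823712-112824086), also called in all 8 libraries, had percentiles of 49.2, 79.7, 11.5 and 25.6 in EpH4 and 55.7, 36.7, 77.9 and 80.1 in EpRas. At this region both TGF-β values lay below both untreated values in EpH4 and above them in EpRas. The Tead1 region 15.8 kb upstream (chr7:112663319-112663635) holds a TEAD sequence and was called in 4 EpRas libraries and 1 EpH4 library. How many of all regions had this division of calls was not counted.

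Tead4 and Tead3 each had an intronic region that was called in all 8 libraries. That of Tead4 (chr6:128282167-128282688) had percentiles between 36.9 and 85.8 in EpH4 and between 43.7 and 89.7 in EpRas. Its promoter had a peak only in EpRas TGF-β replicate 1. That of Tead3 (chr17:28341058-28341450) had percentiles of 53.3 to 70.3 in EpH4 and of 75.4, 87.4 and 86.3 in the first 3 EpRas libraries, but of 17.3 in EpRas TGF-β replicate 2. No region was called at the Tead3 promoter itself. The other region of the Tead3 locus called in all 8 libraries (chr17:28313229-28313593) lay at the start of a neighbouring gene, Fance, and a further flanking region at the start of Rpl10a, so these belong to other genes as much as to Tead3. The mean number of regions was 2.0 in EpH4 and 2.25 in EpRas at Tead4, and 3.0 and 3.75 at Tead3, and neither difference passed the exact permutation test (p = 1 and 0.371).

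The kinase genes Lats2 and Lats1 had 4 and 2 accessible regions, against a median of 2 over all loci with a region. Per 100 kb of locus they had 3.68 and 2.66, against a median of 3.49. At Lats1, both regions lay at the start of a neighbouring gene, Nup43 in 1 library and Katna1 (chr10:7725783-7726108) in 7, and no region was called at the promoter or within the gene. Lats2 had the only region of the 65 called in every EpH4 and no EpRas library, as were 0.752% of all regions. This intronic region (chr14:57705094-57705444), 5.4 kb upstream of the nearest and 53.1 kb downstream of the outermost start of Lats2, had percentiles of 37.9, 0.0687, 49.3 and 60.9. In EpH4 untreated replicate 2 its peak was thus among the weakest of the whole list. With equal list sizes it was called in 3 EpH4 libraries and 0 EpRas libraries, and among peaks at or above the median score in 1 and 0. Chromosome 14 had a larger share of the peaks in EpRas (2.12 to 2.73%) than in EpH4 lists (1.34 to 1.77%), and its part in the calls here was not tested. A further region of Lats2 (chr14:57760389-57761034), called in all 8 libraries at percentiles of 22.4 to 81.2, lay 2.3 kb upstream of the outermost start and so just missed the promoter class, whereas the region 0.1 kb from an inner start was called in EpRas TGF-β replicate 2 alone.

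At Amotl2 the promoter was called in 6 of the 8 libraries, the same 6 as at Wwtr1, and in 2 adjoining regions. The first (chr9:102717522-102717802), with the TEAD sequence printed above, was called at percentiles of 13.6 and 48.1 in replicate 1 of the untreated and TGF-β EpH4 libraries and of 66.0, 35.5 and 11.7 in 3 EpRas libraries. The second (chr9:102718276-102718543) was called in 3 EpRas libraries, at 63.2, 34.8 and 70.1, and in no EpH4 library. The share of all regions with such calls was not counted. The most widely called distal region of Amotl2 was intronic (chr9:102726172-102726590), in 3 libraries at a mean percentile of 20.4. The number of regions at the locus was 2, 0, 4 and 0 in EpH4 and 2, 2, 4 and 1 in EpRas. Replicate 2 of both EpH4 groups had no peak anywhere at Amotl2, so the replicates of 1 group differed as widely as the lines did.

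**Figure D3:**
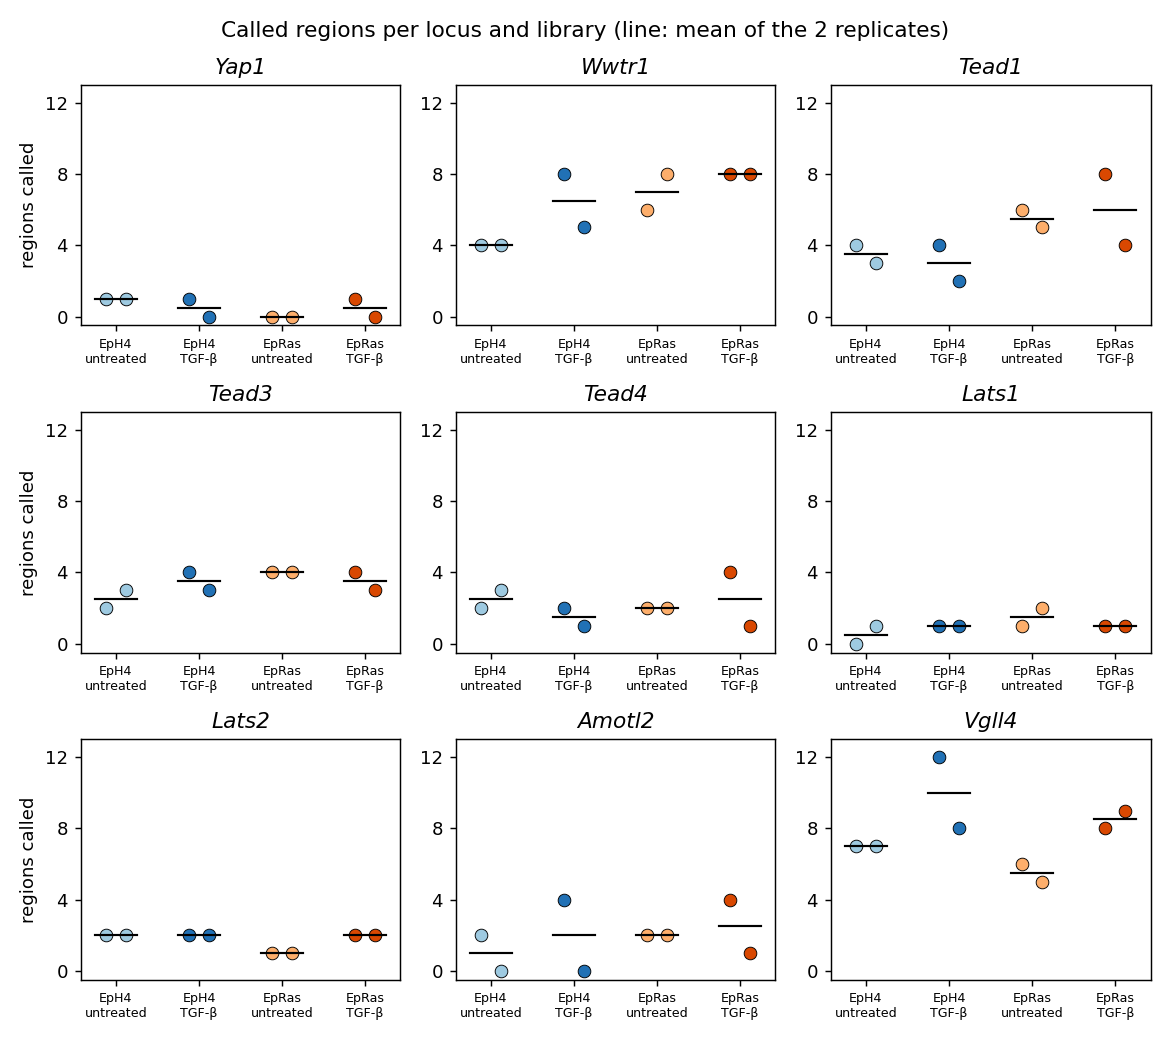
Number of regions called at each of the 9 loci with any region, by group; points are libraries (2 replicates per group) and the line is their mean. At Vgll4 the 4 TGF-β libraries have 8 to 12 regions and the untreated libraries 5 to 7, while the untreated and TGF-β libraries overlap at the other loci.

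Vgll4, which encodes the competitor of YAP and TAZ, was the locus where the calls varied with TGF-β. The untreated libraries had 7 and 7 regions in EpH4 and 6 and 5 in EpRas, and the TGF-β libraries 12 and 8 in EpH4 and 8 and 9 in EpRas. The means were 6.25 ± 0.957 and 9.25 ± 1.89 (SD, n = 4), the groups did not overlap, and the difference of 3.0 regions had the smallest p that 4 against 4 libraries allow (p = 0.0286 by the two-sided exact permutation test). Of all loci, 0.413% had more regions in every TGF-β library and 0.0445% had fewer, and after adjustment over all 15743 loci the p was 1. The effect was 3.0 in both lines (7.0 to 10.0 in EpH4 and 5.5 to 8.5 in EpRas), and the difference between the lines was 0. With equal list sizes the difference was 1.25 and the groups overlapped (exact permutation test, p = 0.543). In EpH4 the lists held 12462 and 13092 peaks untreated and 17927 and 10821 with TGF-β (replicates 1 and 2). The EpRas lists held 17210 and 13784 untreated and 27337 and 16833 with TGF-β. The part of list length in the difference was not tested.

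The equal lists gave another picture of Vgll4. There the EpH4 libraries had 6, 7, 9 and 8 regions and the EpRas libraries 3, 4, 3 and 5, without overlap and with a difference of -3.75 (exact permutation test, p = 0.0286, adjusted p = 0.642), against -1.5 with the full lists (p = 0.486). At equal list sizes 2.26% of the loci had fewer regions in every EpRas library and 2.19% had more. The share of peaks on chromosome 6 was also lower in EpRas (4.00 to 4.46%) than in EpH4 lists (6.17 to 6.80%), and its part in the count was not tested.

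The intronic region of Vgll4 printed second above (chr6:114866153-114866422), 55.5 kb from the nearest start, was called in the 4 TGF-β libraries and in none of the untreated libraries, as were 0.32% of all regions. Its percentiles were 71.1 and 67.0 in EpH4 and 19.5 and 46.4 in EpRas. It holds both a TEAD and an AP-1 sequence in its window, which was the case for 4.48% of all distal regions. With equal list sizes, and also among peaks at or above the median score, it was called in 3 TGF-β libraries and 0 untreated libraries. None of the 65 regions was called in every untreated and no TGF-β library, against 0.0188% of all regions. A region near the upstream start of Vgll4 (chr6:114964310-114964530) was called only in both EpH4 TGF-β libraries, at percentiles 41.8 and 30.0.

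**Figure D4:**
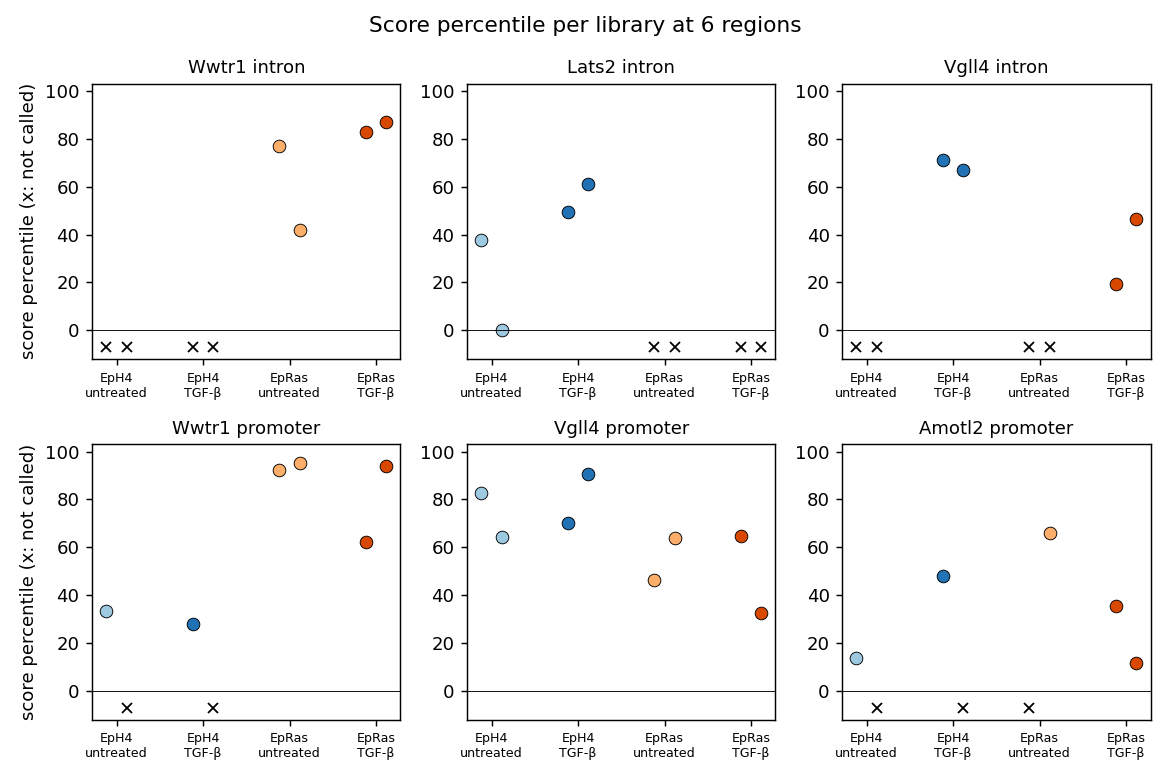
Score percentile in each library at 6 regions, with the 2 replicates of a group side by side and a cross below 0 where no peak was called. The Wwtr1 intron has values in EpRas libraries only, the Lats2 intron in EpH4 libraries only and the Vgll4 intron in TGF-β libraries only; the Wwtr1 promoter stands at 62.4 or above in EpRas and at 33.3 or below in the 2 EpH4 libraries that called it.

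Vgll4 has several starts, and 3 promoter regions were called. The region at an internal start (chr6:114921682-114922014) was the only promoter region of the 10 genes called in all 8 libraries. Its percentiles were 82.8, 64.2, 70.1 and 90.8 in EpH4 and 46.5, 63.9, 64.8 and 32.4 in EpRas, with means of 76.9 ± 12.1 and 51.9 ± 15.5 (SD, n = 4). The EpH4 values lay above all EpRas values except that 64.8 exceeded 64.2 (difference -25.0, exact permutation test, p = 0.0571, adjusted p = 0.408 over the 4259 regions called in all 8 libraries). A region by the upstream start (chr6:114968920-114969192) was called in 4 EpH4 and 2 EpRas libraries, and another (chr6:114969903-114970122) in 2 EpRas libraries at percentiles 13.3 and 5.52. The region with the highest mean percentile among those called in all 8 libraries was the intronic one printed last above (chr6:114888909-114889316), with a TEAD sequence, percentiles of 47.0, 52.4, 96.8 and 89.4 in EpH4 and of 91.1, 83.4, 74.0 and 95.9 in EpRas. Its untreated EpH4 values were the lowest of the 8.

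**Figure D5:**
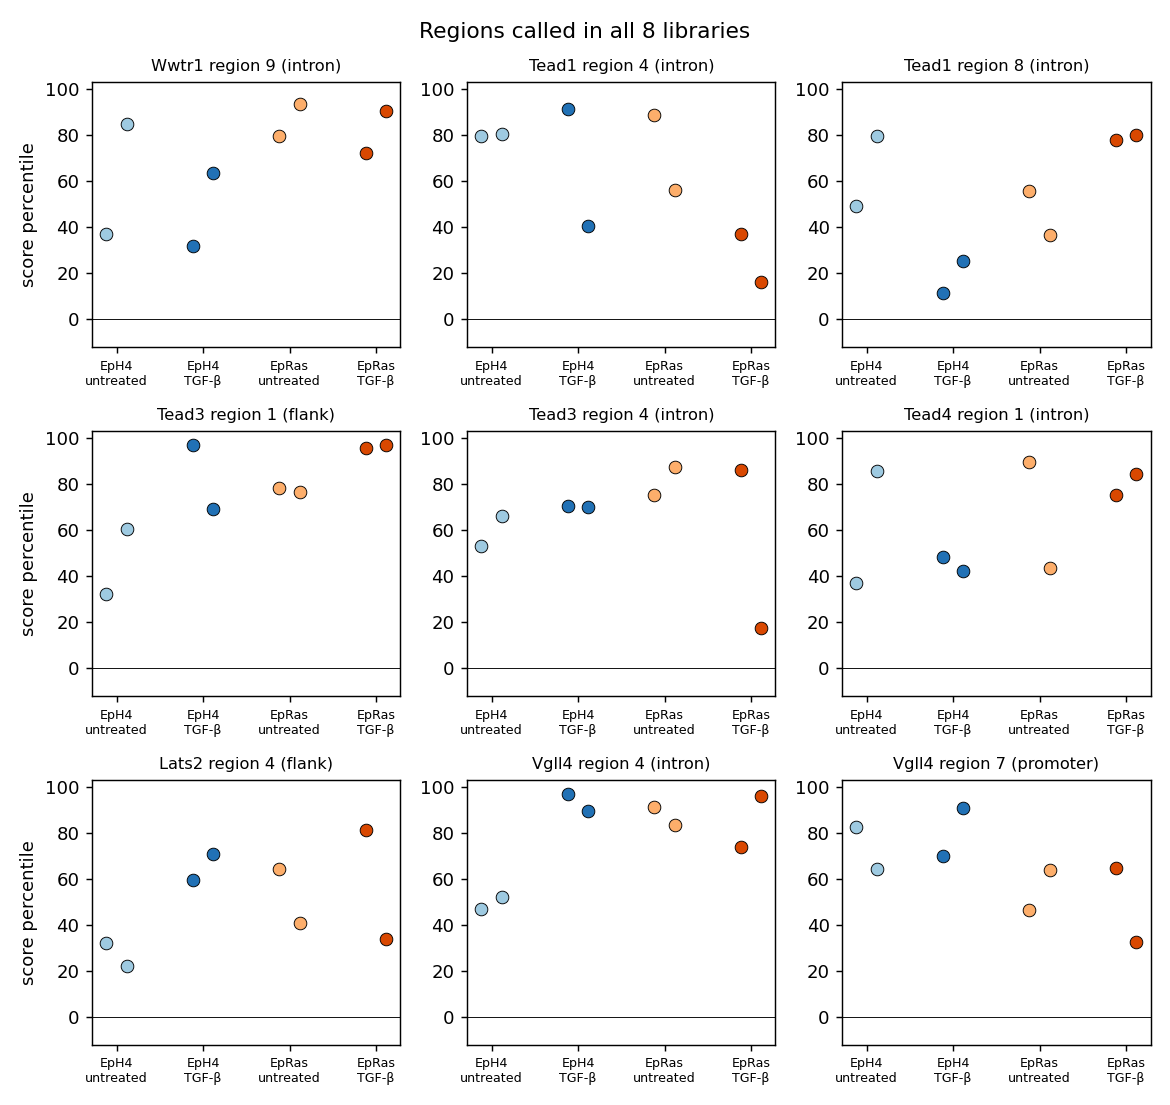
Score percentile by library at the 9 regions called in all 8 libraries, with the replicates of a group side by side. In each of them the EpH4 and EpRas values overlap, as do the untreated and TGF-β values.

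None of the 9 regions called in all 8 libraries had percentiles that separated the lines, which 8.12% of such regions did, or the treatments, which 2.86% did. At the Fance region the line difference was 32.9 without EpH4 TGF-β replicate 1, its highest EpH4 value (exact permutation test, p = 0.0286). Without any other single library it was 11.2 to 25.5 (exact permutation test, p = 0.2 to 0.4). At the Tead3 intron it was 18.1 without EpRas TGF-β replicate 2, its lowest EpRas value (exact permutation test, p = 0.0286). Without any other single library it was -5.26 to 3.46 (exact permutation test, p = 0.886 or above). These p are unadjusted, and how often such a removal reaches 0.0286 over all regions was not counted. By treatment, the widest gaps of means were those of the nearer Tead1 intron region, 76.3 untreated and 46.3 with TGF-β (exact permutation test, p = 0.143), and of the region at Fance in the Tead3 locus, 61.9 and 89.7 (p = 0.0857). Taking the genes rather than the regions, the promoter was called in at least 1 library for 7 of the 10 genes (43.0% of all protein-coding genes) and in all 8 for 1 (10.9%). For Yap1, Tead1 and Tead4 the single library was the one with the longest list, and for Tead2, Tead3 and Lats1 no promoter region was called.

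Whether the TGF-β response of a locus depended on the line was examined with an exact test that exchanged the lines among libraries of the same treatment. Such an exchange assumes that the lines do not differ within a treatment, so the test does not bear on the response alone. None of the 9 loci reached the smallest p of this exact test, 0.0556, which 0.292% of all loci did. The response in EpRas minus that in EpH4 ranged from -1.5 regions at Wwtr1 and Tead3 to 1.5 at Tead4.

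TEAD and AP-1 sequences were counted in the same 300 bases around the middle of each region. Of the 48 distal regions at the 10 loci (those more than 2 kb from the start of any gene), 6 held GGAATGT, or 12.5% (95% Wilson interval 5.86 to 24.7%), against 9.65% of 25086 distal regions. AP-1 was found in 22, or 45.8% (32.6 to 59.7%), against 52.8%. These shares were close to the background, and the intervals cover counting error only. By locus, the TEAD sequence was found in 2 of 14 distal regions at Vgll4, 2 of 8 at Tead1, 1 of 3 at Tead3 and 1 of 3 at Amotl2, and in none of 12 at Wwtr1, 4 at Tead4, 3 at Lats2 and 1 at Yap1. Of the 12 at Wwtr1, 7 held AP-1. A match is a string of letters and was not examined for binding.

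Other genes of the pathway were taken from a list of 44 with 21 kinases, scaffolds and upstream components, 3 cofactors and 20 target genes of YAP and TEAD. Of these, 42 had regions, 210 in all, with a median of 4 per gene. The number of regions did not overlap between the lines at 1 locus, Axl, a receptor tyrosine kinase gene and target of YAP, with 3, 2, 3 and 1 regions in EpH4 and 4, 4, 7 and 4 in EpRas (difference 2.5, exact permutation test, p = 0.0286, adjusted p = 0.593). This is 2.38% of the 42 loci, below the 4.25% of all loci that had more regions in every EpRas library. It lies on chromosome 7, as Tead1 does. No locus of the list separated the treatments. A single region separated the lines, an intronic one of Wwc2, a scaffold of Lats kinase activation (chr8:47872279-47872624, called in EpRas only at a mean percentile of 23.8), or 0.476% of the 210 regions against 1.98% of all regions. The median differences over the list were 0.5 regions for EpRas minus EpH4 and 0.5 for TGF-β minus untreated, against 0.25 for both over all loci, and 0.5 and 0.25 over the 9 loci. Promoter regions were called in at least 1 library for 32 of the 44 genes (72.7%, against 43.0% of all protein-coding genes) and in all 8 for 9 (20.5%, against 10.9%). Among the 20 target genes the promoter was called in at least 1 library for 14 and in all 8 for 4. The promoters of Ccn2 and Ankrd1 were called in 8 libraries and that of Ccn1 in 6, whereas those of Tgfb2, Foxf2 and Igfbp3, for instance, were called in 0.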

How the data were processed

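FAIRE DNA of 8 libraries was sequenced by the authors, trimmed to 36 bases, mapped to mm10 with Bowtie2 and searched for peaks with MACS2 2.0.9, library by library. The deposited lists give each peak a score whose meaning is not given in the sources used here, so scores served only to rank or filter peaks within a list. The lists hold no read counts. Peaks were merged (overlap of at least 1 bp) and placed on GENCODE vM21. Separation of lines or treatments means calls in all 4 libraries of a side and 0 of the other. Counts per locus and percentiles were tested by exact permutation over all 70 assignments of the libraries (36 for the difference between the lines), two-sided, with Benjamini-Hochberg adjustment over all 15743 loci or 4259 regions, in Python 3.11.15 with numpy 2.4.6. The code was tested on simulated lists. Alternatives were equal list sizes, a score cutoff, a 50% cover rule, 10 kb flanks, scaling per 1000 peaks, leaving out each library, a replicate block, a 1 kb promoter limit, other motif settings and, added after the data were seen, starts of the basic transcript set and the count of regions called in all 8 libraries at equal list sizes. All 10 loci were described. The regions named were those that separate lines or treatments or are called in both libraries of 1 group only, the promoter region with most calls, and the most widely called distal region; other regions were chosen after their values were seen. The genes, lists and rules were chosen with earlier results of these data known.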

Additional observations from a re-analysis of the deposited data

Results flagged for a closer look

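The distant intronic region of Tead1 (chr7:112823712-112824086) stood out because every TGF-β library moved one way in EpH4 and the opposite way in EpRas. The mean score percentile with TGF-β minus that without was -45.9 in EpH4 and 32.8 in EpRas, a difference of 78.7 between the lines (exact permutation test of the line labels within treatment, p = 0.111, where 0.0556 is the smallest possible). The difference did not pass the test. The region was picked from the member loci by this same opposite movement, so the p is not independent of the choice. The share of regions over the whole series that move this way was not counted. The percentiles are ranks within lists of 10821 to 27337 peaks, and with equal list sizes the region was called in 7 libraries, so that the comparison could not be repeated there. Groups of 2 libraries are too small for the check on outlying libraries.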

How the results depend on the processing

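The counts at Vgll4 depended most on the settings. Of the 10 loci, the number with a TGF-β difference at p below 0.05 was 1 with the full lists. It was 0 with equal list sizes, with the score cutoff, with 10 kb flanks and per 1000 peaks. The Vgll4 difference was then 1.25, 2.25, 3.0 and 0.107 per 1000 peaks. Under the replicate block it was 3.0 (exact permutation p = 0.0556). That is the smallest p the block allows, so its count of 0 loci was fixed in advance. Without a library the Vgll4 difference ranged from 2.08 to 3.42, with exact permutation p = 0.0857 without either EpRas untreated library. The number with a line difference, 0, was 1 with equal list sizes and per 1000 peaks, at Vgll4 in each case (-3.75, and -0.242 per 1000 peaks), and ranged from 0 to 1 on leaving out a library. Replicate numbers did not pair the samples (correlations of replicate differences from -0.0545 to 0.00216 between groups). The block, run on the counts per locus, could bring no call below 0.05. Regions separating the lines numbered 1 with equal list sizes in place of 2. With the score cutoff they numbered 2, both called in EpRas. Neither the Wwtr1 nor the Lats2 region of the full lists was among them. Regions separating the treatments numbered 0 with equal list sizes and with the score cutoff in place of 1. Without a library they numbered 1 to 3, with 3 without EpRas TGF-β replicate 1.

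Differences within the spread between libraries changed sign. With equal list sizes the TGF-β difference was -0.25 at Wwtr1 and -0.5 at Tead3 and Amotl2, and the line difference -0.75 at Tead4. Per 1000 peaks Tead3 gave -0.0107 between lines and -0.0218 with TGF-β, and Tead4 -0.0316 between lines. The TGF-β difference at Tead4 was 0.25 with the score cutoff and with the cover rule. Without a library it ranged from -0.917 to 0.0833 at Tead4 and from -0.167 to 0.5 at Tead3, and the line difference at Tead4 from -0.333 to 0.667. For score percentiles in regions called in all 8 libraries, the TGF-β difference ranged over -17.0 to 5.86 (distant Tead1 region), -18.0 to 4.95 (Tead3 intron), -10.4 to 7.19 (Tead4), -8.55 to 10.9 (Vgll4 promoter) and -21.5 to 1.61 (Wwtr1), and the line difference in the Tead3 intron over -5.26 to 18.1. The cause of these changes was not tested beyond the construction of each setting. The short TEAD sequence GGAATG was found in 33.3% of the 48 distal regions, against 25.9% of all. Regions called in all 8 libraries numbered 3 with equal list sizes in place of 9. Promoter counts moved by less than the spread between libraries. Without read counts, depth cannot be separated from list length.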

Other observations

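The TEAD sequence GGAATGT was also counted over all distal regions that separated the lines. It was found in 42 of 219 EpH4-only regions, 19.2% (95% Wilson interval 14.5 to 24.9%), and in 50 of 562 EpRas-only regions, 8.90% (6.81 to 11.5%), against 9.65% of all distal regions. The 2 intervals did not overlap, nor did they in 500 bases (18.2 to 29.3% and 8.54 to 13.7%). With the short sequence GGAATG in 300 bases they did overlap. The shares were then 35.6% (29.6 to 42.2%) of the EpH4-only and 26.5% (23.0 to 30.3%) of the EpRas-only regions, against 25.9% of all distal regions. For the AP-1 sequence the order of the shares was the reverse, with 47.5% (41.0 to 54.1%) of the EpH4-only and 67.1% (63.1 to 70.8%) of the EpRas-only regions. The 97 distal regions called in every TGF-β and no untreated library held TEAD in 11.3% (6.45 to 19.2%) and AP-1 in 69.1% (59.3 to 77.4%). The intervals cover counting error only, and no test over libraries was made.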
